A study of Homo sapiens with 9 samples.

Results

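The 33 genes described here mark B cells or carry the signal of their antigen receptor: 2 signalling chains of the receptor, 10 surface proteins, 4 kinases, 8 adaptors, exchange factors and effectors, 2 phosphatases, 5 transcription factors and 2 further identity genes. They were taken by name from the deposited table of 15436 genes, which listed 32 of them. CD24 was not analysed here, and CD38 was too low to test, which left 31 of the 11346 tested genes. RNA came from Raji, an established human cell line grown from a Burkitt lymphoma, a tumour of germinal centre B cells. There were 3 libraries from cells given hydroxyurea (HU), 3 from cells given thymidine and nocodazole (Thy-Noc) and 3 from cells given the solvent DMSO. HU blocks ribonucleotide reductase and so the supply of nucleotides, thymidine in excess has a like effect, and nocodazole takes microtubules apart and arrests cells at mitosis. The sources used here give neither dose nor time. All groups come from 1 tumour line. The labels do not say whether the libraries of a group are separate cultures, so a p-value reflects spread among these libraries alone, possibly technical.

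The B-cell receptor is a membrane immunoglobulin paired with CD79A and CD79B, whose tails are phosphorylated by the Src-family kinases LYN and BLK when antigen binds. SYK then docks on the tails and phosphorylates the adaptor BLNK, which brings BTK to the phospholipase PLCG2. The second messengers made by PLCG2 release calcium and activate protein kinase C beta (PRKCB), which signals to NF-kB through BCL10 and MALT1. PIK3AP1, also called BCAP, recruits the phosphoinositide 3-kinase PIK3CD. CD22, CD72 and FCGR2B counter the signal through the phosphatases PTPN6 and INPP5D.

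Total counts per library ran from 74940755 to 110485145. Levels are given in CPM, a gene's count set relative to the TMM-scaled size of its library. The 32 listed genes took between 0.353% and 0.493% of counts in a library. Markers of other lineages were mostly not among the listed genes: 1 of 14 T-cell markers, 3 of 12 myeloid markers, 1 of 6 NK-cell markers and 0 of 4 erythroid and platelet markers were listed. The summed T-cell level, all from CD247, ran from 0.607 to 1.54 CPM in HU, 1.16 to 4.65 CPM in Thy-Noc and 3.89 to 4.78 CPM in DMSO. The B-cell factor PAX5 and the MHC class II chaperone CD74 stood above 200 CPM in every library, whereas HLA-DRA, an MHC class II chain that B cells normally carry in abundance, stood at 1.78, 1.70 and 1.43 CPM in HU, 1.57, 2.41 and 2.41 CPM in Thy-Noc and 2.68, 3.77 and 4.92 CPM in DMSO. Myeloid markers summed to 1.54 to 5.16 CPM in HU, 0.970 to 1.49 CPM in Thy-Noc and 0.952 to 1.17 CPM in DMSO. The part of these markers in the results was not tested. Whether low values, here of HLA-DRA and below of CD22, CD38 and EBF1, mean little RNA in the cells was not tested either.

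**Figure D1:**
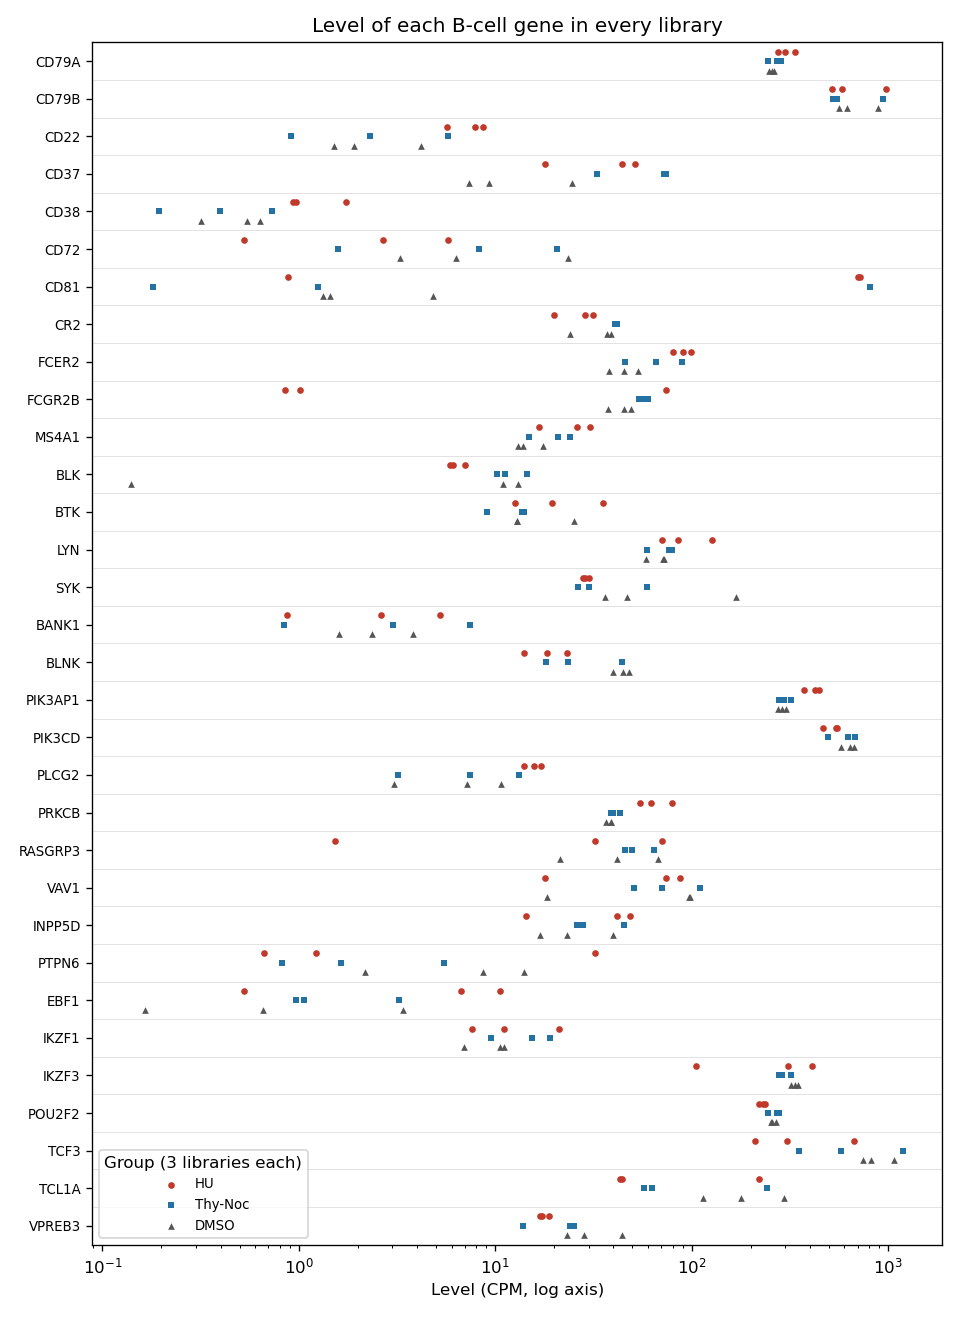
The level of each of the 32 listed genes in every library is plotted in CPM on a log axis, with HU (circles), Thy-Noc (squares) and DMSO (triangles) on separate lines and genes ordered by role. CD79A and POU2F2 form tight clusters, whereas CD81 and FCGR2B split libraries of the same group between values near 1 CPM and values above 50 CPM.

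The first comparison set cells given HU against cells given DMSO. PIK3AP1 and PRKCB, which act in the phosphoinositide 3-kinase and NF-kB branches of the pathway, rose in HU, and no member fell past the test. EdgeR called 2 of the 31 tested members (quasi-likelihood test, Benjamini-Hochberg adjusted p under 0.05 over all genes), against 3.56% of all tested genes. In bulk RNA, fewer cells of a type and less RNA per cell cannot be told apart. At an unadjusted p under 0.05, 6 members were higher and 3 lower, together 9, against 21.2% of all genes in both directions. DESeq2 called 3 members higher, adding FCER2, and 3 lower, BLNK, VPREB3 and POU2F2, against 18.8% of all genes in either direction. Limma called the same 2 as edgeR, against 4.95% of all genes. The median log2 fold change of the 31 members was 0.16, beside 0.018 for all tested genes.

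PIK3AP1 (ENSG00000155629, chromosome 10, 96593312 to 96720514, minus strand in GRCh38) stood at 427, 375 and 445 CPM in HU, 279, 294 and 319 CPM in Thy-Noc and 274, 288 and 304 CPM in DMSO. All 3 HU libraries lay above all 6 others. It rose by 0.53 ± 0.10 on the log2 scale (SE) in HU against DMSO, a 1.44-fold difference (edgeR quasi-likelihood adjusted p 0.0379). Leaving out DMSO replicate 1, 2 or 3 ended the call (edgeR adjusted p 0.126, 0.126 and 0.0967), as did leaving out HU replicate 1 or 3 (0.103 and 0.109) and Thy-Noc replicate 2 or 3 (0.0597 and 0.0540). Over these fits its log2 fold change ran from 0.47 to 0.59.

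PRKCB (ENSG00000166501, chromosome 16, 23835946 to 24220611, plus strand) stood at 79.3, 54.4 and 61.8 CPM in HU, 38.7, 43.5 and 39.8 CPM in Thy-Noc and 38.9, 38.9 and 36.5 CPM in DMSO. Again every HU library lay above every Thy-Noc and DMSO library. The gene rose by 0.78 ± 0.15 on the log2 scale (SE) in HU against DMSO, a 1.71-fold difference (edgeR quasi-likelihood adjusted p 0.0448). The call was kept without HU replicate 2 (edgeR adjusted p 0.0409) and ended without DMSO replicate 1, 2 or 3 (0.129, 0.140 and 0.137), HU replicate 1 or 3 (0.0870 and 0.108) or Thy-Noc replicate 1, 2 or 3 (0.0615, 0.0685 and 0.0710). Its log2 fold change ran from 0.61 to 0.89 over these fits.

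The promoters of these 2 genes are shown because they were the members that rose, and that of VPREB3 because it shares a motif with PRKCB. Each holds 250 bases before and 50 bases after the start site in RefSeq (GRCh38.p14), is written 5′ to 3′ on the strand of the gene, and shows in capitals any octamer, ATGCAAAT or its reverse complement ATTTGCAT, the motif bound by POU2F2. The window of PIK3AP1 spans chr10:96720465-96720764 (minus strand), PRKCB chr16:23835733-23836032 (plus strand) and VPREB3 chr22:23754376-23754675 (minus strand).
PIK3AP1: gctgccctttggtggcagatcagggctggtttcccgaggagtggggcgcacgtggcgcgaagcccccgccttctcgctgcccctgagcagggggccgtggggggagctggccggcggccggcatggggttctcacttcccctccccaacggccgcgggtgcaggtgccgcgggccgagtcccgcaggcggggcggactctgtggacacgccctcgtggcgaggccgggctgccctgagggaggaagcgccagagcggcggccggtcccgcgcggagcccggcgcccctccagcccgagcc
PRKCB: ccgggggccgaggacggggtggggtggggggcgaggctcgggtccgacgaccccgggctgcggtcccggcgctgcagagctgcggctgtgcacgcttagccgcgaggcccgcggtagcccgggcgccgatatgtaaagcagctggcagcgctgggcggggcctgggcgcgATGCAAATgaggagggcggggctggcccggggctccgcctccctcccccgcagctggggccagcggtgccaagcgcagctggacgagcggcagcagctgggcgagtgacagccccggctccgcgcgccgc
VPREB3: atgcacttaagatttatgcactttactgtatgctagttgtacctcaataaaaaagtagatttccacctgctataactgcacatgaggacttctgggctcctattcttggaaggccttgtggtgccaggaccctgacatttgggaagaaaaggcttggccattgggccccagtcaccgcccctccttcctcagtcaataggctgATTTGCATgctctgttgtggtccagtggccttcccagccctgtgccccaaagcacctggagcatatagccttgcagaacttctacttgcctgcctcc
The octamer begins 80 bases before the start site in PRKCB and 47 bases before it in VPREB3. It was found in 2 of the 42 promoters that RefSeq gives for 26 of the 33 genes, and in 1.77% of all 35116 promoters of that length. The motif of EBF1 was in 2 of the 42, those of CD24 and PTPN6, and in 1.21% of all. The PIK3AP1 promoter held neither motif. Its G and C content was 77%, that of PRKCB 77.7% and that of VPREB3 50.3%, against a median of 58.7% over all promoters.

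**Figure D2:**
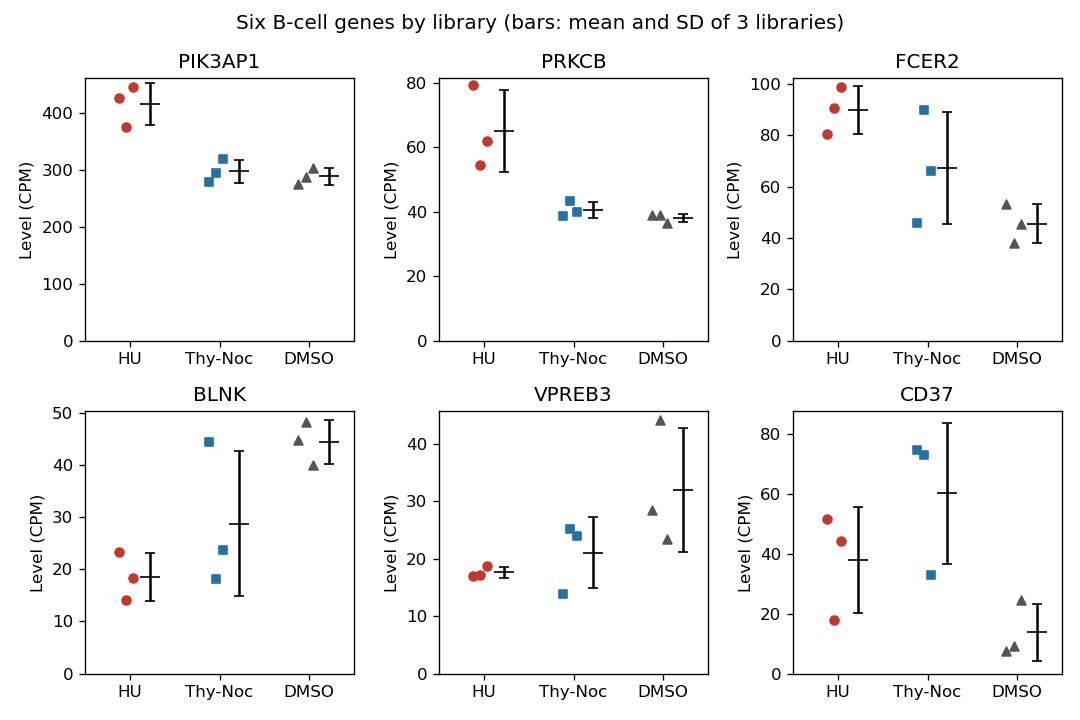
The level of 6 genes is plotted by library in CPM, with HU left, Thy-Noc in the middle and DMSO right, and with the mean and SD of the 3 libraries beside the points. The HU libraries lie above the DMSO libraries for PIK3AP1, PRKCB and FCER2 and below them for BLNK and VPREB3, while for CD37 the Thy-Noc libraries lie above the DMSO libraries.

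Neither signalling chain of the receptor passed the test in HU against DMSO. CD79A, a signalling chain, stood at 336, 300.1 and 277 CPM in HU and 247, 261 and 257 CPM in DMSO. Its HU libraries lay above its DMSO libraries, but the log2 fold change of 0.25 ± 0.10 (SE) did not pass (edgeR adjusted p 0.202). CD79B, its partner, stood at 585, 973 and 517 CPM in HU and 561, 621 and 888 CPM in DMSO, and the groups overlapped. The 95% interval of its log2 fold change was −0.79 to 0.80. Of 8 tested immunoglobulin chain genes, 0 were called by edgeR in HU against DMSO and 4 had an unadjusted p under 0.05, while DESeq2 called 1 higher and 1 lower and limma called 0 higher and 1 lower. Over all tested genes the shares were 3.56% by edgeR, 21.2% at the unadjusted p, 18.8% by DESeq2 and 4.95% by limma. The HU and DMSO libraries did not overlap for 4 of the 8 in the higher direction and 1 in the lower. That share was 30.7% over all tested genes, in either direction. IGHM and IGKC, given next, were not among these. IGHM, the mu heavy chain, stood at 1754, 3967 and 1336 CPM in HU and 2642, 2794 and 2204 CPM in DMSO, and IGKC, the kappa constant region, at 198, 240.1 and 203 CPM in HU and 249, 234 and 231 CPM in DMSO.

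Among the surface proteins, FCER2 and CD22 had separate HU and DMSO groups, and no member passed the test. FCER2, the low-affinity IgE receptor CD23, stood at 80.4, 90.4 and 98.8 CPM in HU and 53.2, 38.1 and 45.3 CPM in DMSO, so that all HU libraries were above all DMSO libraries. Its log2 fold change was 0.98 ± 0.25 (SE, edgeR adjusted p 0.0840), and DESeq2 called it (adjusted p 0.00420). CD22, a sialic acid-binding inhibitor of the receptor, was low throughout, at 8.64, 7.89 and 5.70 CPM in HU and 1.51, 4.17 and 1.92 CPM in DMSO. These groups did not overlap either, with a log2 fold change of 1.55 ± 0.69 (edgeR adjusted p 0.255). MS4A1, which encodes the antibody target CD20, stood at 30.3, 16.8 and 25.97 CPM in HU and 13.9, 13.05 and 17.5 CPM in DMSO, with 1 HU library inside the DMSO range. CD37, a tetraspanin of B cells, stood at 51.6, 17.9 and 44.2 CPM in HU and 7.38, 9.28 and 24.5 CPM in DMSO, and the groups overlapped. CR2, the complement receptor that also admits Epstein-Barr virus, stood at 31.3, 28.8 and 19.99 CPM in HU and 23.97, 38.9 and 37.2 CPM in DMSO, likewise overlapping. CD38, an ectoenzyme of germinal centre and plasma cells, stood at or below 1.74 CPM in every library. CD72, an inhibitory lectin, had a log2 fold change of −1.88 ± 1.21 (edgeR adjusted p 0.439), with values of 5.78, 2.68 and 0.524 CPM in HU and 23.5, 3.28 and 6.33 CPM in DMSO that overlapped.

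Among kinases, adaptors and effectors, SYK, BLNK and PIK3CD were lower in every HU library than in any DMSO library, without passing the test. PLCG2, PIK3AP1 and PRKCB were higher in every HU library than in any DMSO library. The groups were separate, in either direction, for 30.7% of all tested genes. BLNK stood at 23.2, 14.01 and 18.3 CPM in HU and 44.8, 48.2 and 39.9 CPM in DMSO, with a log2 fold change of −1.26 ± 0.35 (SE, edgeR adjusted p 0.103). DESeq2 called it (adjusted p 0.00687), as did the edgeR fit without Thy-Noc replicate 1 (adjusted p 0.0498). BLNK shares 355 exon bases with ZNF518A on the opposite strand, and the sources used here do not say whether counting used strand. SYK stood at 28.7, 28.1 and 29.9 CPM in HU and 36.4, 168 and 46.99 CPM in DMSO. Its log2 fold change was −1.53 ± 0.61 (edgeR adjusted p 0.207), and without DMSO replicate 2, the high library, it was −0.52. LYN stood at 127, 70.3 and 85.3 CPM in HU and 58.4, 71.2 and 72.4 CPM in DMSO, BTK at 35.4, 19.5 and 12.6 CPM in HU and 12.9, 12.9 and 25.2 CPM in DMSO, and in both kinases the groups overlapped.

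PLCG2, the phospholipase, stood at 13.9, 17.1 and 15.8 CPM in HU and 7.19, 3.06 and 10.7 CPM in DMSO. The groups did not overlap, and the log2 fold change was 1.16 ± 0.59 (edgeR adjusted p 0.318). PIK3CD, the catalytic subunit that PIK3AP1 recruits, stood at 548, 542 and 465 CPM in HU and 673, 574 and 642 CPM in DMSO, with HU below DMSO and a log2 fold change of −0.28 ± 0.14 (95% interval −0.61 to 0.045). VAV1, a guanine nucleotide exchange factor, stood at 73.8, 87.4 and 17.9 CPM in HU and 96.8, 18.3 and 98.4 CPM in DMSO, with 1 library near 18 CPM in each group. BANK1, a scaffold for LYN and calcium release, stayed between 0.844 and 7.42 CPM over the 9 libraries. The lipid phosphatase INPP5D (SHIP1) stood at 48.9, 14.3 and 41.9 CPM in HU and 39.9, 16.9 and 23.3 CPM in DMSO, with overlap.

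EdgeR called none of the 5 transcription factors among the members in HU against DMSO. TCF3, which encodes the E2A proteins that start the B-lineage programme, stood at 211, 669 and 306 CPM in HU and 818, 743 and 1072 CPM in DMSO. Its groups did not overlap, but its HU libraries differed 3.16-fold among themselves, and the log2 fold change of −1.15 ± 0.55 did not pass (edgeR adjusted p 0.291). POU2F2 (OCT2), which binds the octamer printed above, was the steadiest member, at 231, 220.4 and 238 CPM in HU and 255, 258 and 270.5 CPM in DMSO. HU lay below DMSO by a log2 fold change of −0.18 ± 0.079 (edgeR adjusted p 0.237), and DESeq2 called the gene lower (adjusted p 0.0336). IKZF3 (Aiolos) stood at 309, 412 and 105 CPM in HU and 335, 348 and 319 CPM in DMSO, with 1 HU library far below the rest, and IKZF1 (Ikaros) at 7.67, 21.1 and 11.1 CPM in HU and 11.1, 6.96 and 10.6 CPM in DMSO. EBF1, a pioneer factor of the B lineage, was low at 10.6, 6.74 and 0.524 CPM in HU and 0.165, 3.40 and 0.661 CPM in DMSO, and its log2 fold change of 2.07 ± 1.32 had an edgeR adjusted p of 0.432. VPREB3, a chaperone-like protein of immunoglobulin assembly, stood at 16.9, 17.2 and 18.8 CPM in HU and 28.5, 44.1 and 23.3 CPM in DMSO. All HU libraries were below all DMSO libraries, with a log2 fold change of −0.86 ± 0.31 (edgeR adjusted p 0.167; DESeq2 adjusted p 0.0437). TCL1A, a co-activator of AKT, stood at 221, 43.03 and 44.5 CPM in HU and 179, 114 and 295 CPM in DMSO and overlapped.

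Counted together, the HU and DMSO libraries did not overlap for 6 members in the higher direction (CD79A, CD22, PLCG2, PIK3AP1, FCER2 and PRKCB) and 6 in the lower direction (SYK, BLNK, PIK3CD, TCF3, POU2F2 and VPREB3). The groups were separate, in one direction or the other, for 30.7% of all tested genes. Exons of CD22, CD72, CD81, BLK, PLCG2 and PIK3CD, like those of BLNK, overlap another listed gene, so reads could be split there.

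**Figure D3:**
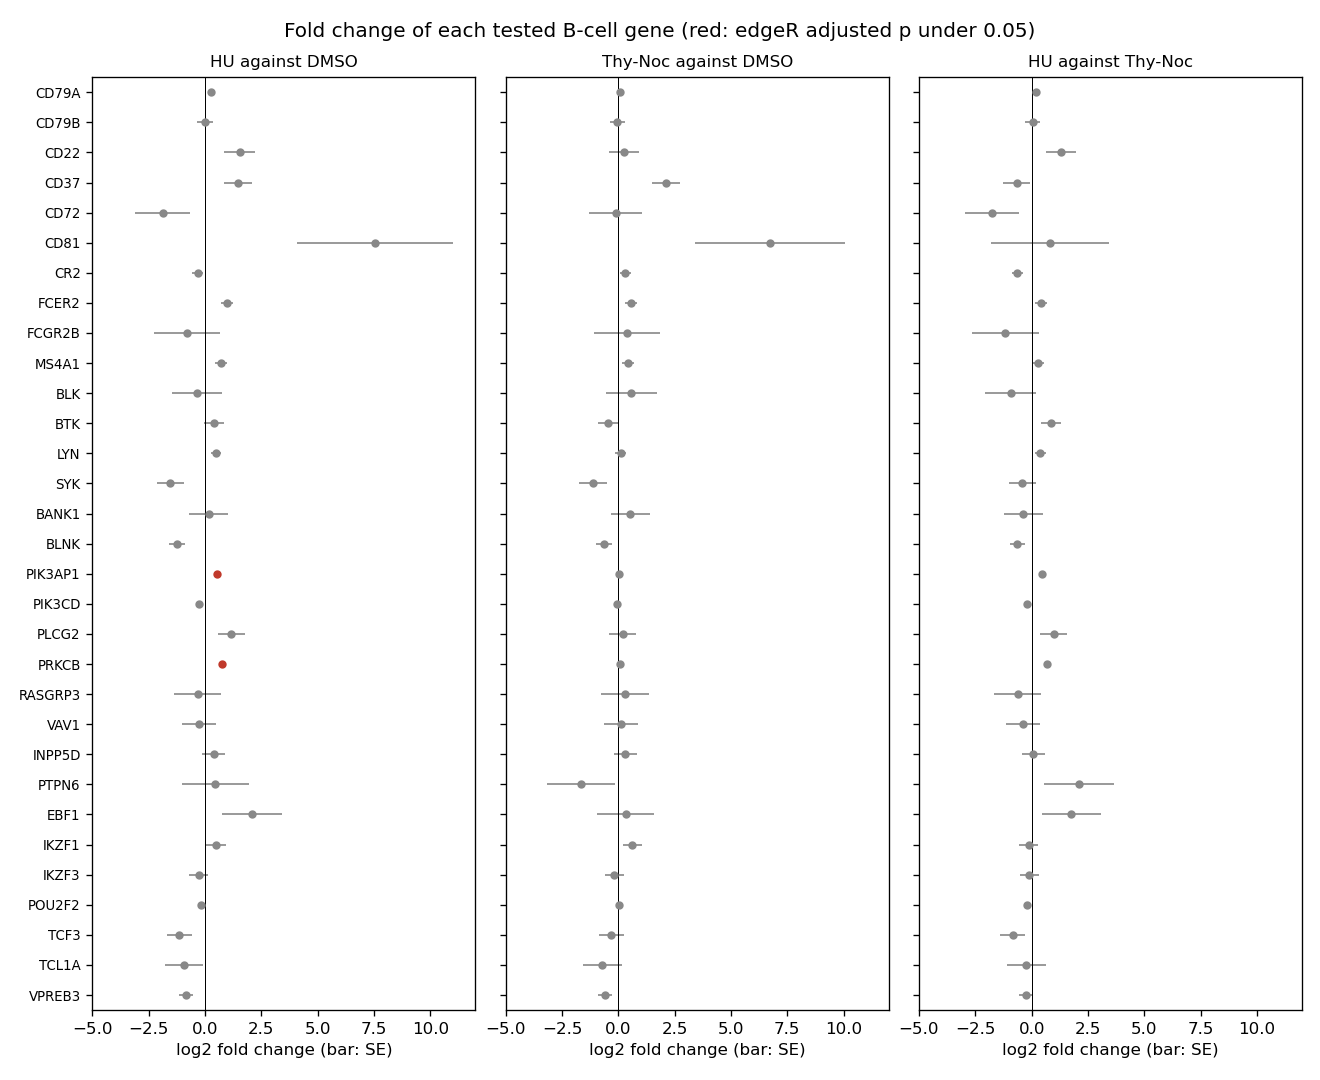
The log2 fold change of each of the 31 tested genes is plotted with its SE for HU against DMSO, Thy-Noc against DMSO and HU against Thy-Noc. PIK3AP1 and PRKCB in HU against DMSO are the only points in red, which marks an edgeR adjusted p under 0.05, and CD81 has the largest fold change and the widest error in both comparisons with DMSO.

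The comparison of Thy-Noc with DMSO shares its DMSO libraries with the first comparison. EdgeR called 0 of the 31 members, where it called 0.0353% of all tested genes; 1 member had an unadjusted p under 0.05 (background 4.49%), DESeq2 called 1 (background 1.58%) and limma 0 (background 0.106%). That member was CD37, at 74.4, 72.7 and 33.02 CPM in Thy-Noc and 7.38, 9.28 and 24.5 CPM in DMSO, with all Thy-Noc libraries above all DMSO libraries. Its log2 fold change was 2.13 ± 0.62 (SE, edgeR adjusted p 0.9998), and DESeq2 called it (adjusted p 0.0484). CD37 also had a positive log2 fold change in HU against DMSO, 1.47 ± 0.61 (edgeR adjusted p 0.224). In HU against Thy-Noc it had −0.66 ± 0.60 (edgeR adjusted p 0.632), so a difference between the 2 treatments was not shown. PIK3AP1 and PRKCB had log2 fold changes of 0.043 ± 0.10 and 0.10 ± 0.15, with 95% intervals of −0.18 to 0.27 and −0.26 to 0.45. PTPN6 had 0.820, 5.48 and 1.64 CPM in Thy-Noc and 14.01, 8.72 and 2.19 CPM in DMSO, overlapping, with a log2 fold change of −1.65 ± 1.52 (edgeR adjusted p 0.9998). The groups did not overlap for 3 members, CD37, CR2 and FCGR2B, each higher in Thy-Noc, against 9.97% of all genes. The median log2 fold change of the members was 0.10, beside 0.01 for all genes.

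HU was also set against Thy-Noc directly. EdgeR called 0 of 31 members, against 1.75% of all genes, while 4 had an unadjusted p under 0.05 (background 19.4%), DESeq2 called 3 (PIK3AP1, PRKCB and POU2F2; background 16.1%) and limma 1 (PIK3AP1; background 2.87%). PRKCB, whose HU libraries lay above its Thy-Noc libraries, had a log2 fold change of 0.68 ± 0.15 (SE, edgeR adjusted p 0.0747; DESeq2 adjusted p 0.000475). PIK3AP1 had one of 0.48 ± 0.10 (edgeR adjusted p 0.0567). The rise of these genes in HU was thus not shown to be particular to HU by edgeR over all genes. CR2 stood at 31.3, 28.8 and 19.99 CPM in HU and 41.6, 40.7 and 41.9 CPM in Thy-Noc, below in all HU libraries (log2 fold change −0.63 ± 0.24, edgeR adjusted p 0.207). BLK, a Src-family kinase largely restricted to B cells, stood at 6.07, 7.06 and 5.86 CPM in HU and 10.2, 11.2 and 14.5 CPM in Thy-Noc, also without overlap (log2 fold change −0.92 ± 1.13, edgeR adjusted p 0.751). PLCG2, with a log2 fold change of 0.97 ± 0.59, EBF1 with 1.75 ± 1.31, CD72 with −1.77 ± 1.21 and PTPN6 with 2.10 ± 1.54 (−1.48 without HU replicate 1) did not pass either (edgeR adjusted p 0.437, 0.544, 0.503 and 0.539). Groups did not overlap for PIK3AP1, PRKCB and PLCG2, higher in HU, and for CR2, BLK and POU2F2, lower in HU, against 24.9% of all genes.

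Several members differed widely between libraries of the same group. In 7 of 31 members the highest library of a group was at least 10-fold above the lowest after adding 0.5 CPM, against 16.2% of all tested genes. CD81, a tetraspanin, stood at 0.886, 719.8 and 702 CPM in HU, 811, 0.182 and 1.25 CPM in Thy-Noc and 1.33, 1.44 and 4.85 CPM in DMSO. It was thus high in 2 HU libraries and 1 Thy-Noc library and below 5 CPM in the other 6. Its log2 fold change was 7.55 ± 3.45 in HU against DMSO and 6.74 ± 3.33 in Thy-Noc against DMSO (edgeR adjusted p 0.267 and 0.9998), and the second was −1.81 without Thy-Noc replicate 1.

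FCGR2B, the inhibitory IgG receptor, stood at 74.1, 0.855 and 1.01 CPM in HU, 53.8, 59.7 and 56.9 CPM in Thy-Noc and 37.4, 49.1 and 45.2 CPM in DMSO. HU replicates 2 and 3 were near 1 CPM and the other 7 libraries were not. Without HU replicate 1 edgeR called the gene lower in HU against DMSO (log2 fold change −5.55, adjusted p 0.00155) and against Thy-Noc (−5.93, adjusted p 0.00117), where with all libraries it had −0.79 ± 1.47 and −1.17 ± 1.48. The gene has a near-identical copy, FCGR2C, so its value is uncertain, and the part of this copy in the split between HU libraries was not tested. RASGRP3, an activator of RAS, stood at 70.5, 1.53 and 32.4 CPM in HU, 45.8, 49.9 and 64.7 CPM in Thy-Noc and 41.8, 21.5 and 67.5 CPM in DMSO, with HU replicate 2 apart. The phosphatase PTPN6 (SHP-1) varied in HU, with replicate 1 high, at 32.1, 1.23 and 0.667 CPM. BLK was low in DMSO replicate 2 alone, at 10.97, 0.140 and 13.1 CPM in DMSO. CD72 and EBF1 were the other 2, just past the limit at 10.2-fold and 10.8-fold, and the nearest below it was BANK1 at 5.89-fold. The limit was passed within HU by 5 members, within Thy-Noc by 2 and within DMSO by 1, and without HU replicate 1 the number over all groups was 4.

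Members with more annotated transcripts were among those that varied. In GENCODE release 29, 5 of 15 members with over 10 transcripts, 2 of 14 with 4 to 10 and 0 of 2 with 1 to 3 passed the limit. Over all tested genes the shares were 26.3%, 14.8% and 3.99%. The part of transcript number in the spread was not tested. CD81 has 17 transcripts and PTPN6 23, while POU2F2, with 20, differed at most 1.14-fold within a group, and CD22, with 34, at most 4.42-fold.

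**Figure D4:**
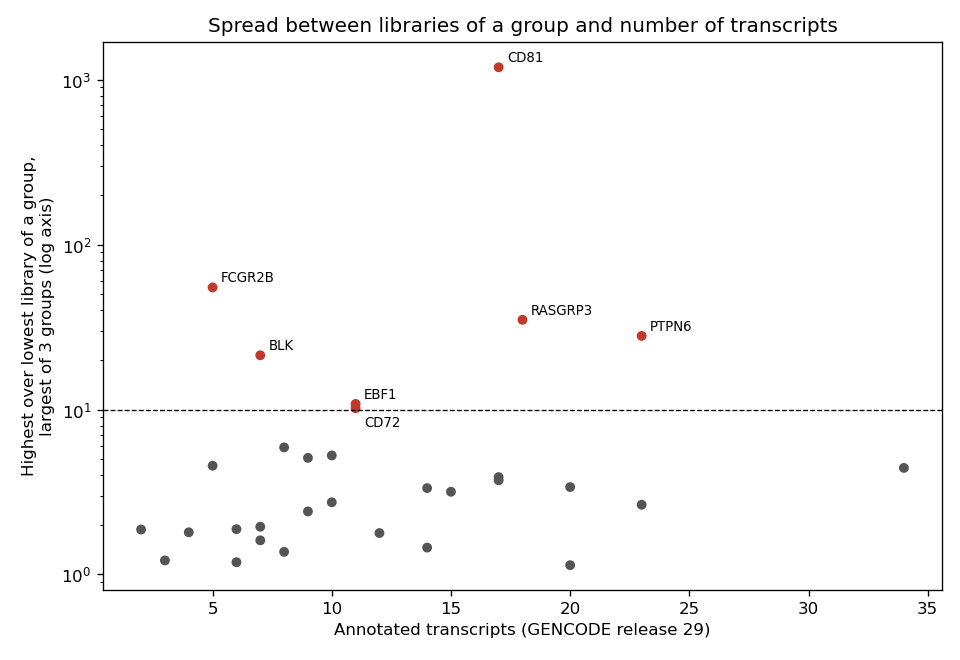
For each of the 31 tested genes, the highest over the lowest library of a group after adding 0.5 CPM (the largest of the 3 groups, log axis) is plotted against its number of annotated transcripts, with the 10-fold limit dashed. The 7 genes above the limit, in red and named, have between 5 and 23 transcripts.

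Set per kilobase of merged exons of all annotated transcripts, the DMSO level was highest for CD79B, at a mean of 332 CPM per kilobase. CD79A followed at 169.9, TCF3 at 144 and PIK3CD at 99.4 CPM per kilobase. The sources used here name no counting tool, and how far these levels compare between genes was not tested. CD79A stood at 165, 174 and 171 and TCF3 at 135, 122 and 176 CPM per kilobase in the 3 DMSO libraries, so these neighbours overlapped. TCL1A, at a mean of 87.8 CPM per kilobase, VPREB3 at 52.4 and PIK3AP1 at 50.7 came next. The lowest were CD38 at 0.0729, EBF1 at 0.228, CD81 at 0.343 and CD22 at 0.411 CPM per kilobase. Of these, EBF1 and CD81 were over the 10-fold limit between libraries of a group, and CD81 reached 719.8 CPM in HU and 811 CPM in Thy-Noc.

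Other genes of the receptor pathway were read from 3 lists that hold none of the 33. These lists were chosen with earlier results of these data known, so their counts are a description and no independent test. Of 74 tested signalling genes, 3 were higher and 0 lower in HU against DMSO by edgeR, against 3.56% of all tested genes in either direction. At an unadjusted p under 0.05, 14 were higher and 9 lower, against 21.2% of all genes. DESeq2 called 15 higher and 5 lower, against 18.8% of all genes, and limma 3 higher and 1 lower, against 4.95%. The median log2 fold change of the list was −0.032. The higher genes were NFKBIE, an inhibitor of NF-kB, the calcium channel ORAI1 and the kinase BRAF, which rose by 1.54 ± 0.22, 0.89 ± 0.17 and 0.56 ± 0.10 on the log2 scale. ORAI1 stood at 45.9, 38.6 and 45.6 CPM in HU and 25.4, 20.9 and 23.8 CPM in DMSO. BCL10 and MALT1, which act below PRKCB, had log2 fold changes of 0.52 ± 0.14 and 0.13 ± 0.14 and did not pass (edgeR adjusted p 0.0879 and 0.686).

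Of 20 tested identity factors, SPIB and RUNX3 rose by 1.503 ± 0.17 and 0.56 ± 0.066 on the log2 scale in HU against DMSO, while BACH2, a repressor of plasma cell differentiation, was lower, with a log2 fold change of −1.40 ± 0.25. These were 2 higher and 1 lower by edgeR, where 3.56% of all tested genes were called, and DESeq2 called 5 higher and 2 lower, against 18.8% of all genes. Plasma cell markers, 5 of 6 listed, summed to 620.3 to 712 CPM in HU, 871 to 1069 CPM in Thy-Noc and 891 to 1063 CPM in DMSO. JCHAIN had the highest mean of these markers, 544 CPM over the 9 libraries. Of the 5 tested, edgeR called MZB1 lower in HU against DMSO (log2 fold change −0.75 ± 0.14, adjusted p 0.0412). That was 1 of 5, where edgeR called 3.56% of all tested genes. In that comparison 3 of the 5 had a positive and 2 a negative log2 fold change, with a median of 0.020. The part of these markers in the list was not tested. RUNX3 stood at 371, 371 and 356 CPM in HU and 251, 249 and 245 CPM in DMSO. Of 34 tested surface genes, 7 were higher and 1, FCRL3, lower by edgeR, against 3.56% of all tested genes. The median log2 fold change of the list was 0.52. Since the list was chosen with earlier results known, this contrast is no independent test. DESeq2 called 14 higher and 1 lower, against 18.8% of all genes, and limma 9 higher and 1 lower, against 4.95%. CCR7, the chemokine receptor that guides cells into lymph nodes, stood at 296, 165 and 246 CPM in HU and 38.6, 22.1 and 44.8 CPM in DMSO and rose by 2.75 ± 0.32. CXCR5, CD80, a ligand of CD28, and SLAMF1 rose by 2.52 ± 0.44, 1.87 ± 0.36 and 1.58 ± 0.33, and FCRL3 was lower, with a log2 fold change of −2.001 ± 0.28. EdgeR gave these 11 genes adjusted p between 0.0154 and 0.0492. The 3 lists held 14 edgeR calls, of which these 11 are named. Of the 11 named calls, 1, 6 and 3 were kept without HU replicate 1, 2 and 3, 9, 6 and 5 without Thy-Noc replicate 1, 2 and 3, and 0, 2 and 0 without DMSO replicate 1, 2 and 3.

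In Thy-Noc against DMSO the call in these 3 lists was FCRL3, at 1.46, 1.41 and 2.13 CPM in Thy-Noc and 37.4, 26.3 and 41.2 CPM in DMSO (log2 fold change −4.39 ± 0.31, edgeR adjusted p 0.00518), where edgeR called 0.0353% of all tested genes. In HU against Thy-Noc the signalling list had 2 higher calls, NFKBIE and BRAF, the identity list 2 higher, SPIB and RUNX3, and 1 lower, BACH2, and the surface list 2 higher, FCRL3 and CCR7, where edgeR called 1.75% of all tested genes. DESeq2 called 9 higher and 4 lower in the signalling list, 2 higher and 2 lower in the identity list and 10 higher and 0 lower in the surface list, against 16.1% of all genes. The log2 fold changes of the 7 genes by edgeR were 1.57 ± 0.22, 0.63 ± 0.10, 1.15 ± 0.17, 0.498 ± 0.066, −1.42 ± 0.25, 2.39 ± 0.28 and 1.99 ± 0.31 in that order, with edgeR adjusted p from 0.0186 to 0.0443. Of the 7 calls, 0, 4 and 0 were kept without HU replicate 1, 2 and 3, 0, 0 and 0 without Thy-Noc replicate 1, 2 and 3, and 0, 2 and 1 without DMSO replicate 1, 2 and 3.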

How the data were processed

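Per the labels' protocols, the 9 Raji libraries were prepared with a stranded mRNA kit. FastQC, Trim Galore, STAR, DESeq2 and the build GRCh38 are named in the submitters' processing notes, without roles or versions. The authors deposited 1 table whose name calls the values CPM. The deposited values are whole numbers with differing totals and were treated like expected counts, rounded to whole numbers. Their lowest value is 1, and the sources used here name no counting tool. Of 15436 gene identifiers, 15393 matched a symbol, and 15272 had coordinates in GENCODE release 29.

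Genes reaching a CPM of 1 in 3 or more libraries were scaled by TMM and fitted over all 9 libraries with edgeR 4.0.16 in R 4.3.3 (glmQLFit, glmQLFTest, 3 groups, no covariate), with Benjamini-Hochberg adjustment over all 11346 tested genes and a threshold of 0.05. Each SE is the log2 fold change over the root of F, and 95% intervals used 7.25 degrees of freedom. Printed CPM use scaled totals of tested genes. Alternatives were other filters, scalings, limma 3.58.1, DESeq2 1.42.0, a replicate block, the compared libraries alone, and leaving out each library. Steps were tested on simulated counts in which each gene's spread between libraries was capped at the median over genes. That spread is smaller than in these data, so the run does not show how the steps handle libraries that disagree. Libraries of a group differed far beyond sampling noise, so none was counted as a duplicate. The members and lists were chosen with earlier results of these data known. Every member is named; a fold change and test were printed for called members, those with separated groups and a log2 fold change of at least 0.5, and the 3 largest of a comparison, with others added after their values were seen. Up to 4 called genes per list and direction were named, and some genes of the lists are not reported here. The spread between the 3 libraries of a group limits precision, since the median count of a tested member was 3134.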

Additional observations from a re-analysis of the deposited data

How the results depend on the processing

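For HU against DMSO, 2 members were called higher and 0 lower. The higher count was 0 with no filter, with only the 6 libraries compared and with the replicate block, and the lower count was 3 with DESeq2. Leaving out 1 library gave 0 to 2 higher and 0 to 1 lower. For Thy-Noc against DMSO, DESeq2 called 1 higher, and leaving out 1 library gave 0 in either direction. For HU against Thy-Noc, the higher count was 1 with a CPM minimum of 5, total-count scaling, quantile normalization and limma at a pseudocount of 0.1, 0.5 or 1, and 2 with DESeq2 and without genes over the 10-fold limit, while DESeq2 called 1 lower. Leaving out 1 library gave 0 higher and 0 to 1 lower. PIK3AP1 kept its call in 12 and PRKCB in 11 of 22 alternatives, with a positive fold change in all 22 and adjusted p up to 0.126 and 0.140. The members' median log2 fold change ran from −0.082 to 0.24 in HU against DMSO, 0.018 to 0.11 in Thy-Noc against DMSO and −0.21 to 0.058 in HU against Thy-Noc when 1 library was left out. With 1 library left out, CD81 in Thy-Noc against DMSO ran from −1.81 (without Thy-Noc replicate 1) to 7.62, and PTPN6 in HU against Thy-Noc from −1.48 (without HU replicate 1) to 3.22. The number of members over the 10-fold limit was 7, ran from 4 to 7 when 1 library was left out, and was 10 at a 5-fold limit and 5 at a 20-fold limit or a pseudocount of 1. The cause was not tested for any of these.

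Over all genes, 7 to 1079 were called higher and 2 to 1056 lower in HU against DMSO, where the fit reported gave 227 and 177. Thy-Noc against DMSO ran from 0 to 102 higher and 0 to 77 lower around 3 and 1, and HU against Thy-Noc from 0 to 900 higher and 0 to 926 lower around 79 and 120. Total-count scaling moved the median of all genes by 0.10 in HU against DMSO and 0.15 in HU against Thy-Noc, and the share of calls that were higher to 72.7% and 70.7%, against 56.2% and 39.7% with TMM. Under that scaling, before subtracting the shift, PIK3AP1 had 0.63 and PRKCB 0.88 in HU against DMSO. Replicate numbers share no stated source. Deviations of same-numbered libraries correlated at −0.035 to 0.040, and those of differently numbered libraries at −0.054 to 0.033. In HU against Thy-Noc the same-numbered pairs gave 0.040, 0.039 and 0.029, and the others ran from −0.033 to −0.0060. In both comparisons with DMSO the same-numbered pairs had both signs. Whether replicates are paired was not tested. Of the calls named from the pathway lists, 0 of 11 in HU against DMSO, 0 of 1 in Thy-Noc against DMSO (FCRL3, edgeR adjusted p 0.0855) and 0 of 7 in HU against Thy-Noc were kept with the replicate block, and 1, 1 and 0 with only the 6 libraries compared. With the replicate block, edgeR adjusted p was 0.0799 for PIK3AP1 and 0.106 for PRKCB, and the calls over all genes in HU against DMSO were 7 higher and 2 lower.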
